A study of Mus musculus with 6 samples.

Results

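Striatal projection neurons are the GABA-releasing output cells of the striatum, which lies against the outer wall of the lateral ventricle. The genes described here are 9 that mark these cells: Ppp1r1b, Drd1, Drd2, Adora2a, Rgs9, Penk, Pde10a, Tac1 and Gng7. Members were taken by name, as the rows of the deposited table whose platform annotation gives a single symbol from that list. Of the 9 genes, 8 were found, with 16 of 45037 probe sets. Adora2a was not analysed here. All 8 genes had at least 1 probe set among the 27022 kept after the lowest 40% of mean levels were left out, and 10 of the 16 probe sets were kept.

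Choroid plexus epithelium, which secretes cerebrospinal fluid, had been prepared from whole mouse brain in 6 samples, each measured on 1 single-colour array from total RNA. By the sample descriptions 3 were wild type (WT) mice of the B10.PL strain and 3 were RAG-/- mice of that strain, which lack mature T and B cells. No treatment is named, and the sources used here do not give age, the Rag gene that was disrupted, or whether animals were pooled. A code in the titles joins 1 WT and 1 RAG-/- sample into each of 3 pairs, which have the replicate numbers 1, 2 and 3. In pair 1 the descriptions say that the samples had been reversed and contradict the genotype in the titles, so each comparison is given by description and by title. By title, WT replicate 1 belongs with the RAG samples and RAG-/- replicate 1 with the B10 samples.

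In the textbook account, striatal projection neurons form a direct pathway, whose cells carry the dopamine receptor Drd1 and make substance P from Tac1, and an indirect pathway, whose cells carry the dopamine receptor Drd2 and the adenosine receptor Adora2a and make enkephalin from Penk. Dopamine raises cyclic AMP through Drd1 and lowers it through Drd2. Ppp1r1b, Pde10a, Rgs9 and Gng7 act in both kinds of cell: Ppp1r1b encodes a phosphatase inhibitor that integrates dopamine signals, Pde10a breaks down cyclic nucleotides, Rgs9 shortens G protein signals, and Gng7 is a G protein gamma subunit that serves receptor coupling to adenylyl cyclase. None of these genes is restricted to the striatum. Tac1 and Penk are made by neurons of many regions, and in rat the protein of Ppp1r1b has also been described in choroid plexus epithelium.

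Promoters of Tac1, Drd1 and Drd2 are shown because these genes separate the pathways and, as given further on, did not move alike between arrays. The promoter table used here, taken from RefSeq (build GRCm38.p6), matched 6 of the 9 genes with 9 promoters. Those of Penk, Ppp1r1b and Adora2a were not used here. Each promoter has 250 bases before and 50 after a transcription start, written in the sense of the gene. Capitals mark the GC box GGGCGG and the core of the cyclic AMP response element, TGACG, on either strand (CCGCCC and CGTCA). These motifs do not overlap one another in the sequences shown. The promoter of Tac1 lies on the plus strand at chr6:7554811-7555110, that of Drd2 on the plus strand at chr9:49340153-49340452, and those of the start sites of Drd1 on the minus strand at chr13:54055609-54055908 and chr13:54054731-54055030.
Tac1: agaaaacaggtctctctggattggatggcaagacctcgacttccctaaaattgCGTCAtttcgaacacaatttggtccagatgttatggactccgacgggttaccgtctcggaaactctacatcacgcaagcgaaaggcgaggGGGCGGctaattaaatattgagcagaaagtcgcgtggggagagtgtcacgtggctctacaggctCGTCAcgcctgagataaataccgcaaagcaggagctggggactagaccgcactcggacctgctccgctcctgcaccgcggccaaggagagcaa
Drd1, upstream start: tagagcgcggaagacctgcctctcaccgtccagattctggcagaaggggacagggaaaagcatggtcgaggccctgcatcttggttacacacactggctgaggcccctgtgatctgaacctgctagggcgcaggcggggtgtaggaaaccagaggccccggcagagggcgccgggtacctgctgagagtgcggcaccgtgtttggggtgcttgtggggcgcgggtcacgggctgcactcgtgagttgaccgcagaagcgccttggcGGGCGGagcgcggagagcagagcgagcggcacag
Drd1, downstream start: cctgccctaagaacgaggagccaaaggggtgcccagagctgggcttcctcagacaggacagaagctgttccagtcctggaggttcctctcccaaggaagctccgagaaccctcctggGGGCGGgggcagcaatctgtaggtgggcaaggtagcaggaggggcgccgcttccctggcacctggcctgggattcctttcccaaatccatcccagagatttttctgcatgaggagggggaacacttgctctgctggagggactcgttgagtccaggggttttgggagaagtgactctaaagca
Drd2: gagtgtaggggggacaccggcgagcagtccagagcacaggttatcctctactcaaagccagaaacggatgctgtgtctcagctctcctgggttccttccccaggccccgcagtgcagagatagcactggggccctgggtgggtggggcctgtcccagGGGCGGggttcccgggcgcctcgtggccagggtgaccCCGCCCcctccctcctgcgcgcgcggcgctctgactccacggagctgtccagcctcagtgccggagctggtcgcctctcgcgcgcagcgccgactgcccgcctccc
The Tac1 promoter holds 2 copies of the TGACG core and 1 GC box. Each Drd1 promoter holds 1 GC box and the Drd2 promoter 2, with 0 copies of the TGACG core in all of them. Of all 32851 mouse promoters of this length in the table, 35.7% hold a GC box and 20.8% the TGACG core. A match is a description of the letters and not a site of binding.

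Levels are log2(intensity + 16) after quantile normalization unless they are called deposited intensities. Across probe sets, which are no replicates of each other, the 6 arrays correlated pairwise at between 0.905 and 0.965. On the leading principal component (48.4% of the variance) RAG-/- replicate 2 scored highest, at 106, and WT replicate 2 was next, at 31.2. The arrays of pair 1 lay at -2.19 (WT) and -3.78 (RAG-/-), and those of pair 3 at -61.9 (WT) and -69.3 (RAG-/-). Choroid plexus epithelium markers were bright on every array, with list means from 12.52 in RAG-/- replicate 2 to 13.55 in RAG-/- replicate 1. All 14 of the measured epithelial markers were lowest in RAG-/- replicate 2, and all 13 measured markers of neurons in general were highest there. Ttr, the thyroid hormone carrier that defines this epithelium, lay between 14.69 and 14.83 at its brightest probe set. The Rag1 and Rag2 probe sets, both below the filter, were not used to check genotype. The Rag1 probe set had a brightness at the 27.1 percentile, with a mean level of 5.94 ± 1.20 in RAG-/- and 5.02 ± 1.32 in WT by description, and 6.59 ± 0.31 in RAG and 4.37 ± 0.22 in B10 by title (SD, n = 3). The Rag1 groups overlapped by description but not by title. By title its deposited intensities were 62.1 to 115.7 in RAG and 1.86 to 7.19 in B10, the latter below the 16 that is added. For Rag2 (26.2 percentile) the difference was 0.05 by description and -0.68 by title. Which reading of pair 1 holds was not tested, so directions refer to the libraries as labelled.

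The direct pathway genes Drd1 and Tac1 had the widest ranges of the 8 genes on this scale, and both were lowest in WT replicate 2. The deposited intensity of Tac1, the precursor of substance P, was 1540 in WT replicate 1 and 415.6 in RAG-/- replicate 1 (pair 1), 92.72 in WT replicate 2 and 1641 in RAG-/- replicate 2 (pair 2), and 944.9 in WT replicate 3 and 890.0 in RAG-/- replicate 3 (pair 3). WT replicate 2 was far below the other arrays, and the groups overlapped under either reading of the labels. The highest and lowest arrays differed 17.7-fold, and the range of 3.94 on the log2 scale was wider than in 98.7% of the 13537 genes kept. A second, dim probe set of Tac1, below the filter, ranged over 0.91 and was lowest in RAG-/- replicate 3.

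Drd1, the receptor that raises cyclic AMP, had levels of 7.71 and 6.51 in WT and RAG-/- replicates 1, 4.80 and 6.54 in replicates 2, and 6.16 and 6.85 in replicates 3. It was highest in WT replicate 1 and lowest in WT replicate 2, and by title all 3 RAG arrays lay above all 3 B10 arrays. Its probe set was at the 46.9 percentile of brightness, so that its deposited intensities of 11.65 to 200.6 are those of a dim gene. The other Drd1 probe set, at the 24.5 percentile and below the filter, was also highest in WT replicate 1 (7.42) and lowest in WT replicate 2 (4.39). Its groups overlapped by title, and in pair 3 it was lower in RAG-/- (4.54) than in WT (5.92).

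The indirect pathway genes Drd2 and Penk were both highest in RAG-/- replicate 2. Penk, the enkephalin precursor, had deposited intensities of 1068 in WT replicate 1 and 462.9 in RAG-/- replicate 1, 614.8 in WT replicate 2 and 2655 in RAG-/- replicate 2, and 467.5 in WT replicate 3 and 401.6 in RAG-/- replicate 3. RAG-/- replicate 2 and WT replicate 1 were the high arrays and the other 4 lay close together, so that the groups overlapped under either reading. Drd2, the receptor that lowers cyclic AMP, was near the filter, at the 42.8 percentile, and varied little. Its levels were 6.25 and 6.36 in WT and RAG-/- replicates 1, 5.89 and 6.64 in replicates 2, and 6.05 and 6.02 in replicates 3, a range of 0.75 that was wider than in 26.1% of genes.

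Among the genes of both pathways, Gng7 followed Drd1 from array to array. Gng7 was at 8.74 and 7.26 in WT and RAG-/- replicates 1, 6.08 and 7.15 in replicates 2, and 7.45 and 7.99 in replicates 3. Like Drd1 it was highest in WT replicate 1 and lowest in WT replicate 2. After each gene was centred on its own mean, Gng7 and Drd1 differed by 0.26 in root mean square over the 6 arrays, the smallest distance of the 28 pairs of members, whose median was 0.88.

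Pde10a and Rgs9 were lowest in RAG-/- replicate 1 and highest in RAG-/- replicate 3. Pde10a, the phosphodiesterase, had levels of 9.93 and 8.30 in WT and RAG-/- replicates 1, 9.21 and 10.01 in replicates 2, and 9.43 and 10.47 in replicates 3, and by title the RAG arrays all lay above the B10 arrays. Its next brightest probe set had the same lowest and highest arrays (7.08 and 8.41), while a dimmer one was lowest in RAG-/- replicate 3 (5.01). In both of these the groups overlapped by title. Rgs9, the brake on G protein signals, was at 8.19 and 7.43 in WT and RAG-/- replicates 1, 7.61 and 7.96 in replicates 2, and 8.49 and 8.55 in replicates 3. Both arrays of pair 3 were above the other 4 for Rgs9, and the groups overlapped under either reading.

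Ppp1r1b had another order of arrays than the other members. Its deposited intensities were 4683 in WT replicate 1 and 7501 in RAG-/- replicate 1, 5923 in WT replicate 2 and 2348 in RAG-/- replicate 2, and 3938 in WT replicate 3 and 3633 in RAG-/- replicate 3. It was highest in RAG-/- replicate 1 and lowest in RAG-/- replicate 2, while Tac1, Drd2 and Penk were highest in RAG-/- replicate 2. By its mean over the arrays its probe set was at the 96.2 percentile, well above the filter. Its level was 11.22 or more on every array, and 12.585 in WT replicate 2, where Drd1 and Tac1 were lowest. Of 15 other lists of genes, the centred mean of the choroid plexus epithelium markers lay nearest to Ppp1r1b (0.33 in root mean square), followed by cortical projection neurons (0.36). The distance to the other striatal genes was 0.71 and that to neurons in general 1.33. The epithelial mean was likewise highest in RAG-/- replicate 1 and lowest in RAG-/- replicate 2. The mean of subventricular progenitors and neuroblasts had the same highest and lowest arrays, and lay almost as near to Ppp1r1b (0.38). The part of epithelial content in the Ppp1r1b levels was not tested. In bulk tissue of this kind, fewer cells of a type and less RNA per cell cannot be told apart.

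**Figure D1:**
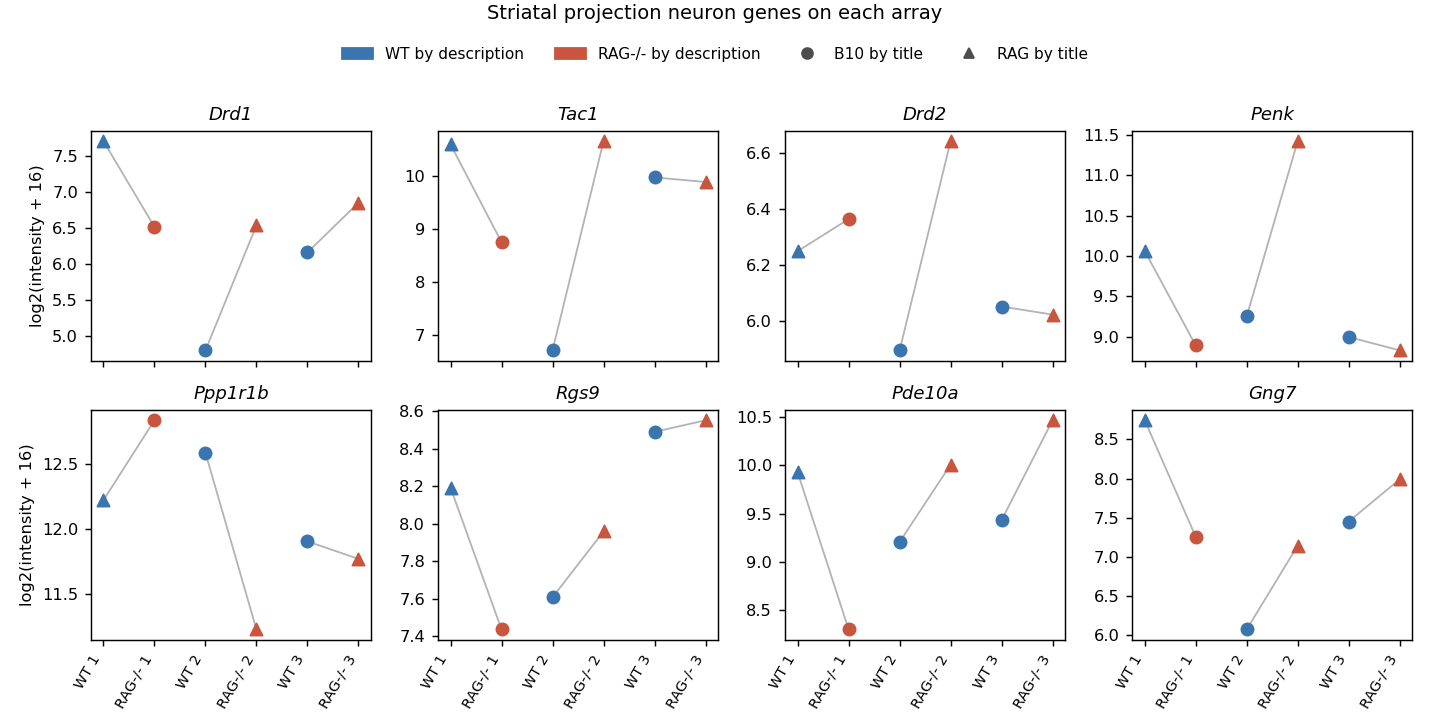
Level of each gene, log2(intensity + 16), on the 6 arrays, with a line joining the arrays of a pair, colour for the genotype by description and shape for the genotype by title; the vertical scale differs between panels. Drd1, Tac1, Drd2 and Gng7 were lowest in WT replicate 2, and Ppp1r1b was highest in RAG-/- replicate 1 and lowest in RAG-/- replicate 2.

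Levels were next set out by pair. In pair 1, 6 of the 8 genes were higher in the array described as WT, among them Tac1 (3.71-fold in deposited intensity), Gng7 (3.4-fold), Pde10a (3.29-fold) and Drd1 (3.04-fold), while Ppp1r1b was 1.6-fold higher in RAG-/- and Drd2 was nearly level (1.01-fold). In pair 2, 7 of 8 were higher in RAG-/-, led on the log2 scale by Tac1 (3.94, or 17.7-fold in deposited intensity), Penk (2.17, or 4.32-fold) and Drd1 (1.74, with no fold given because its intensity of 11.65 in WT replicate 2 was below the pseudocount), and Ppp1r1b was 2.52-fold higher in WT. In pair 3, 4 of 8 were higher in RAG-/-, with Pde10a at 2.12-fold, Drd1 at 1.65-fold, Gng7 at 1.39-fold and Rgs9 at 1.02-fold. Of all genes kept, 53.1%, 47.4% and 46.5% were higher in RAG-/- in pairs 1, 2 and 3. The mean over the 8 genes differed, RAG-/- minus WT, by -0.92, 1.18 and 0.24 on the log2 scale in pairs 1, 2 and 3.

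A test of differences among the 3 pairs (limma F test, Benjamini-Hochberg adjustment over 27022 probe sets) called 0 of the 10 member probe sets kept, against 2.02% of all probe sets. At an unadjusted p under 0.05 it also took in 0 of the 8 genes, against 27.7% of all probe sets. The adjusted p of the 8 genes lay between 0.245 for Gng7 and 0.841 for Drd2. The total count was unstable, at 545 over all arrays, 7324 without WT replicate 2, 1751 without RAG-/- replicate 2 and 0 without any 1 of the other arrays. Without WT replicate 2, Penk and Ppp1r1b were among the probe sets called, a setting in which pair 2 is RAG-/- replicate 2 alone and that lone array is assumed to vary like the others.

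Direct and indirect pathway genes were compared within each array, as the mean level of Drd1 and Tac1 minus that of Drd2 and Penk. Since these are different probe sets, only the movement of this difference between arrays has meaning. It was 0.996 in WT replicate 1 and 0.01 in RAG-/- replicate 1, -1.81 in WT replicate 2 and -0.43 in RAG-/- replicate 2, and 0.54 in WT replicate 3 and 0.94 in RAG-/- replicate 3. Both arrays of pair 2 lay below the other 4, and WT replicate 2 was the lowest. This order held in full for Drd1 minus Drd2 and for Tac1 minus Penk, but only in part for the other combinations of single genes. For Tac1 minus Drd2, WT replicate 2 was lowest (0.82). There RAG-/- replicate 2 (4.015) lay above WT replicate 3 (3.92), RAG-/- replicate 3 (3.87) and RAG-/- replicate 1 (2.39). For Drd1 minus Penk, both arrays of pair 2 lay below the other 4 (-2.84 to -1.98). Of that pair RAG-/- replicate 2 was lowest (-4.88) and WT replicate 2 was at -4.45. In WT replicate 2 the direct pathway mean was 5.76, against 7.63 to 9.15 elsewhere, whereas the indirect pathway mean of 7.57 lay within the 7.43 to 9.03 of the other arrays. In RAG-/- replicate 2 the indirect pathway mean was the highest of the 6.

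By description the direct minus indirect difference was 0.17 ± 0.70 in RAG-/- and -0.09 ± 1.51 in WT (SD, n = 3), a difference of 0.26 that is smaller than the spread between arrays. By title it was 0.50 ± 0.81 in RAG and -0.42 ± 1.24 in B10 (SD, n = 3), a difference of 0.92, within the spread of the B10 arrays, and was 0.23 without WT replicate 2, 1.40 without RAG-/- replicate 2, 1.42 without WT replicate 3 and 0.34 with all probe sets of a gene averaged. As a score over chosen genes it was given no test. By description the value rested on single arrays and on the probe sets used: it was -0.60 without WT replicate 2, -0.12 without RAG-/- replicate 3 and -0.31 with all probe sets of a gene averaged.

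**Figure D2:**
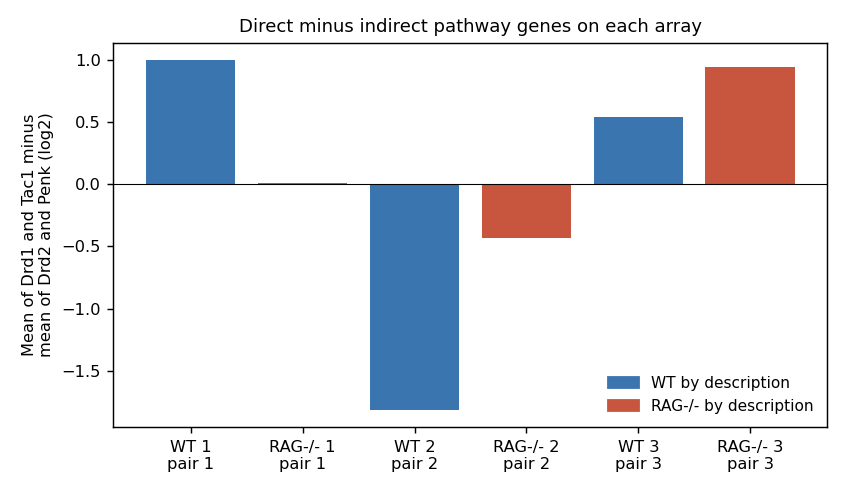
Mean log2 level of Drd1 and Tac1 minus that of Drd2 and Penk on each array, ordered by pair and coloured by the genotype in the description. The arrays of pair 2 were lowest, at -1.81 and -0.43, and the other 4 lay between 0.01 and 0.996.

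RAG-/- and WT samples were compared by description, to ask whether the genotype given there goes with striatal gene levels. With limma, 0 of the 10 member probe sets kept passed, as did 0% of all probe sets, and at an unadjusted p under 0.05 the count was 0 of the 8 genes, beside 0.711% (192) of 27022 probe sets. The groups overlapped in all 8 genes; among all genes, 1.69% had RAG-/- arrays all above and 1.41% all below the WT arrays. Tac1 was at 9.77 ± 0.96 in RAG-/- and 9.10 ± 2.08 in WT (SD, n = 3), a difference of 0.67 with SE 0.96. Drd1 differed by 0.41, from 6.22 ± 1.46 in WT to 6.63 ± 0.19 in RAG-/- (SD, n = 3). Drd2 and Penk each differed by 0.28, Pde10a by 0.07, Gng7 by 0.04, Rgs9 by -0.11 and Ppp1r1b by -0.29. Each difference was smaller than its SE. In direction 6 of 8 were higher in RAG-/-, with a median of 0.17, where the median over all 13537 genes was -0.01 and 48.9% were higher. The count of 6 was 2 without WT replicate 2, and the mean difference of 0.17 over the 8 genes turned to -0.20 there. Leaving out WT replicate 1 moved that mean to 0.52, leaving out RAG-/- replicate 1 to 0.36, RAG-/- replicate 2 to 0.03 and RAG-/- replicate 3 to 0.11.

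The same comparison by title turned pair 1 and left pairs 2 and 3 as they were. By title 7 of 8 genes were higher in RAG, all but Ppp1r1b, with a median of 1.04, where the median over all genes was -0.02 and 46.1% were higher. With limma 0 passed, as did 0% of all probe sets (adjusted p = 1 for each of the 8 genes). At an unadjusted p under 0.05 the count was 2 of the 8 genes, Tac1 and Pde10a, beside 1.23% of all probe sets. With the pair as a block the unadjusted count rose to 6 of the 8 genes, all but Drd2 and Rgs9, beside 4.14% of all probe sets. Among the 6 the unadjusted p with the block was lowest for Pde10a (0.00235), Gng7 (0.00844) and Drd1 (0.01), from limma. At their brightest probe sets Drd1, Gng7, Pde10a and Rgs9 were higher in RAG by title in all 3 pairs, and Ppp1r1b was lower in all 3. Tac1, Penk and Drd2 did not keep 1 direction. The share of all genes that keep 1 direction was not counted. The dimmer Rgs9 probe sets, below the filter, were not higher in RAG in all pairs. The dimmer Drd1 probe set, below the filter, went the other way in pair 3 (-1.38). Of the Pde10a probe sets kept, the next brightest did so in pair 2 (-0.17) and a dimmer one in pair 3 (-1.205). The adjusted p of these 6 genes with the block was 0.926 (limma), and 0 of the 10 member probe sets passed it, beside 0.0037% (1) of all probe sets. By description the block left the unadjusted count at 0 of 8, beside 2.35%. Drd1 and Pde10a had groups that did not overlap, both higher in RAG, as 2.2% of all genes did in that direction and 2.53% in the other.

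Tac1 was at 10.38 ± 0.43 in RAG and 8.48 ± 1.65 in B10 by title (SD, n = 3), a difference of 1.90 with SE 0.73. Pde10a was at 10.14 ± 0.29 in RAG and 8.98 ± 0.60 in B10 (SD, n = 3), a difference of 1.15 with SE 0.37, and Drd1 differed by 1.21 with SE 0.53. Penk differed by 1.06 and Gng7 by 1.03, Rgs9 by 0.39 and Drd2 by 0.20. Ppp1r1b was lower, at 11.74 ± 0.50 in RAG and 12.44 ± 0.48 in B10 (SD, n = 3), a difference of -0.70 with SE 0.34. The mean over the 8 genes was 8.99 ± 0.21 in RAG and 8.21 ± 0.40 in B10 (SD, n = 3), a difference of 0.78. That mean lay between 0.56 and 0.96 when any array was left out, and was 0.497 with all probe sets of a gene averaged, where Tac1 was at 0.91, Pde10a at 0.42 and Rgs9 at 0.04. Single genes depended more on 1 array: without WT replicate 2 the difference by title was 1.02 for Tac1, 0.695 for Drd1 and 0.60 for Gng7, and without RAG-/- replicate 2 it was 0.40 for Penk and -0.455 for Ppp1r1b. Over all single arrays left out it ran from 1.02 to 2.65 for Tac1, 0.695 to 1.55 for Drd1, 0.60 to 1.44 for Gng7, 0.40 to 1.67 for Penk and 0.81 to 1.38 for Pde10a. Other lists differed by title as well, given here without a test. Oligodendrocyte markers were higher in RAG for 11 of 11 measured genes, with list means of 9.78 to 10.27 in B10 and 10.55 to 11.70 in RAG. General neuron markers were higher for 11 of 13, with means of 9.92 to 11.13 in B10 and 9.26 to 12.64 in RAG, and choroid plexus epithelium markers were lower for 13 of 14, with means of 13.40 to 13.55 in B10 and 12.52 to 13.45 in RAG. By description oligodendrocyte markers were higher in RAG-/- for 11 of 11 (median 1.08) and epithelium markers lower for 14 of 14 (median -0.22). The part of these cells in the striatal gene differences was not tested. Both readings share pairs 2 and 3 and differ only in the sign of pair 1, so they are not independent of each other.

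**Figure D3:**
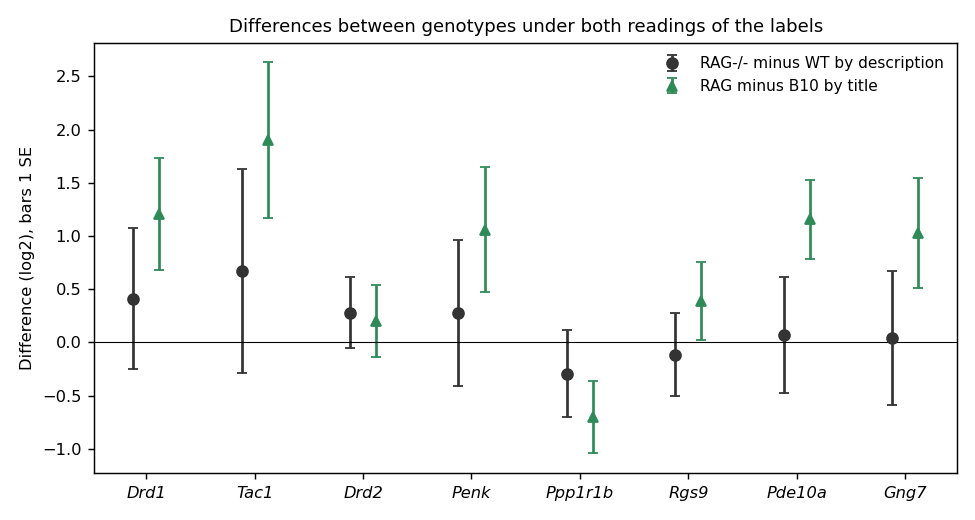
Difference in log2 level between genotypes for each gene under both readings of the labels, as RAG-/- minus WT by description (circles) and RAG minus B10 by title (triangles), with bars of 1 SE from limma. By title 7 of 8 genes were above 0 and Ppp1r1b was at -0.70; by description all values lay between -0.29 and 0.67, and none of either set passed the threshold.

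Other genes of striatal projection neurons were taken as a list of 34, of which 31 were measured and 25 kept. Their mean was 8.60 in WT replicate 1 and 8.01 in RAG-/- replicate 1, 7.72 in WT replicate 2 and 8.38 in RAG-/- replicate 2, and 7.76 in WT replicate 3 and 8.07 in RAG-/- replicate 3. As with the 8 genes, WT replicate 1 was highest and WT replicate 2 lowest. Habenular neuron markers, 5 measured and 2 kept, had the same highest and lowest arrays (means of 6.90 and 5.68). By centred mean they lay nearer than these striatal genes to Tac1 (1.09 against 1.16 in root mean square). The same held for Gng7 (0.565 against 0.631) and Rgs9 (0.365 against 0.489). The striatal genes lay nearer to the remaining members, among them Drd1 (0.635 against 0.675 for habenular markers). Of the 31, 9 were highest in WT replicate 1 and 10 in RAG-/- replicate 2, where 10.6% and 25.4% of all genes kept were highest. In WT replicate 2, 11 of the 31 were lowest, as were 14.8% of all genes kept. By title 28 of 31 were higher in RAG (median 0.54), and by description 17 of 31 (median 0.15). With limma 0 passed under either reading, and 1 passed the test among pairs.

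The gene that passed among pairs was Gad1, which encodes an enzyme of GABA synthesis (adjusted p = 0.0233, limma F test). It was at 12.21 and 12.73 in WT and RAG-/- replicates 1, 13.01 and 13.53 in replicates 2, and 9.77 and 9.53 in replicates 3, so that pair 3 was low. The call was lost wherever 0 probe sets passed this test, that is without any 1 array of pairs 1 and 3 or with genotype by description in the fit. The vesicular GABA transporter Slc32a1 and the second GABA-synthesizing enzyme Gad2 were highest in RAG-/- replicate 2 (11.91 and 11.28) and lowest in RAG-/- replicate 3 (7.48 and 8.34). GABA genes are shared by inhibitory neurons of every region. Arpp21, a phosphoprotein rich in striatal neurons, had the order of Drd1 at its ends, 11.83 in WT replicate 1 and 8.38 in WT replicate 2. The homeobox gene Meis2 was highest in RAG-/- replicate 1 (11.86) and lowest in WT replicate 2 (9.20), and Lrrc10b ran from 5.35 in WT replicate 3 to 8.31 in RAG-/- replicate 3. A pair of dim genes below the filter, chosen after their values were seen, were both highest in WT replicate 1: Pdyn, the dynorphin precursor of the direct pathway, at 7.09, and Gpr6, an orphan receptor of the indirect pathway, at 7.51. Pdyn was lowest in WT replicate 2 (4.49). The other striatal genes below the filter had other highest arrays. Isl1 was highest in WT replicate 2 (6.39) and Chrm4 in RAG-/- replicate 3 (5.80). Drd3 was highest in RAG-/- replicate 1 (6.18) and Slc35d3 in RAG-/- replicate 2 (6.82).

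Markers of other cells were set beside these levels, to describe what else each preparation held. Neurons in general had their highest mean in RAG-/- replicate 2 (12.64), then in WT replicate 2 (11.13), and their lowest in pair 3 (9.92 and 9.26). Drd1 and Tac1 did not follow that order. They were lowest in WT replicate 2, and their mean of 8.37 in RAG-/- replicate 3 was above the 7.63 of RAG-/- replicate 1, although all 13 general neuron markers were lowest in RAG-/- replicate 3. Penk lay nearest to the general neuron mean of all lists (0.49 in root mean square). Snap25, a protein of all nerve terminals, was at 13.94 in WT replicate 2 and 11.38 in RAG-/- replicate 3.

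Cerebellar neuron markers had their highest mean, 11.91, in WT replicate 2, the array in which Drd1, Tac1, Drd2 and Gng7 were lowest, and then 11.01 in RAG-/- replicate 2, against 8.20 to 10.65 in the other 4. The list means of cells lining or near the lateral ventricle did not vary as widely, and those of cortical, hippocampal and thalamic neurons, given below, varied less still. The ependymal mean lay between 9.90 in WT replicate 2 and 10.78 in RAG-/- replicate 3, and that of subventricular progenitors and neuroblasts between 6.89 in RAG-/- replicate 2 and 7.89 in RAG-/- replicate 1. Single markers moved apart within these lists. Ccdc153 and Tmem212 of the ependyma were highest in RAG-/- replicate 2, where Foxj1, Rsph1 and Dynlrb2 were lowest. Dlx1 of the subventricular list ranged over 4.93. The ependymal mean was lowest in WT replicate 2, as were Drd1 and Tac1, and ependyma was the list nearest to Rgs9 by centred mean (0.28). Interneurons of the striatum ranged from 6.85 in RAG-/- replicate 3 to 8.23 in RAG-/- replicate 2, cortical projection neurons from 7.17 to 7.85, hippocampal neurons from 6.76 to 7.39, thalamic neurons from 8.005 to 8.51 and habenular neurons from 5.68 to 6.90. Oligodendrocyte markers were high in RAG-/- replicates 2 and 3 (11.70 and 11.65) and between 9.78 and 10.55 elsewhere, and lay nearest to Pde10a of all lists (0.52). Astrocyte markers ranged from 10.55 in RAG-/- replicate 3 to 12.05 in RAG-/- replicate 2, dopamine neuron markers from 6.33 to 10.08, and hindbrain neuron markers from 5.11 to 7.34. The high dopamine and hindbrain means in RAG-/- replicate 2 rested on few genes, named after their values were seen: Ddc (14.52), Slc18a2 (12.44) and Tph2 (13.82), which serotonin neurons share or define. Th, the enzyme that defines dopamine synthesis, was highest in RAG-/- replicate 1 (9.70), and the dopamine transporter gene Slc6a3 and the hindbrain genes Slc6a5 and Hoxb5 were highest in WT replicate 3. No marker was listed at 0 on any array. The part of dissection and cell content in the striatal gene levels was not tested.

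**Figure D4:**
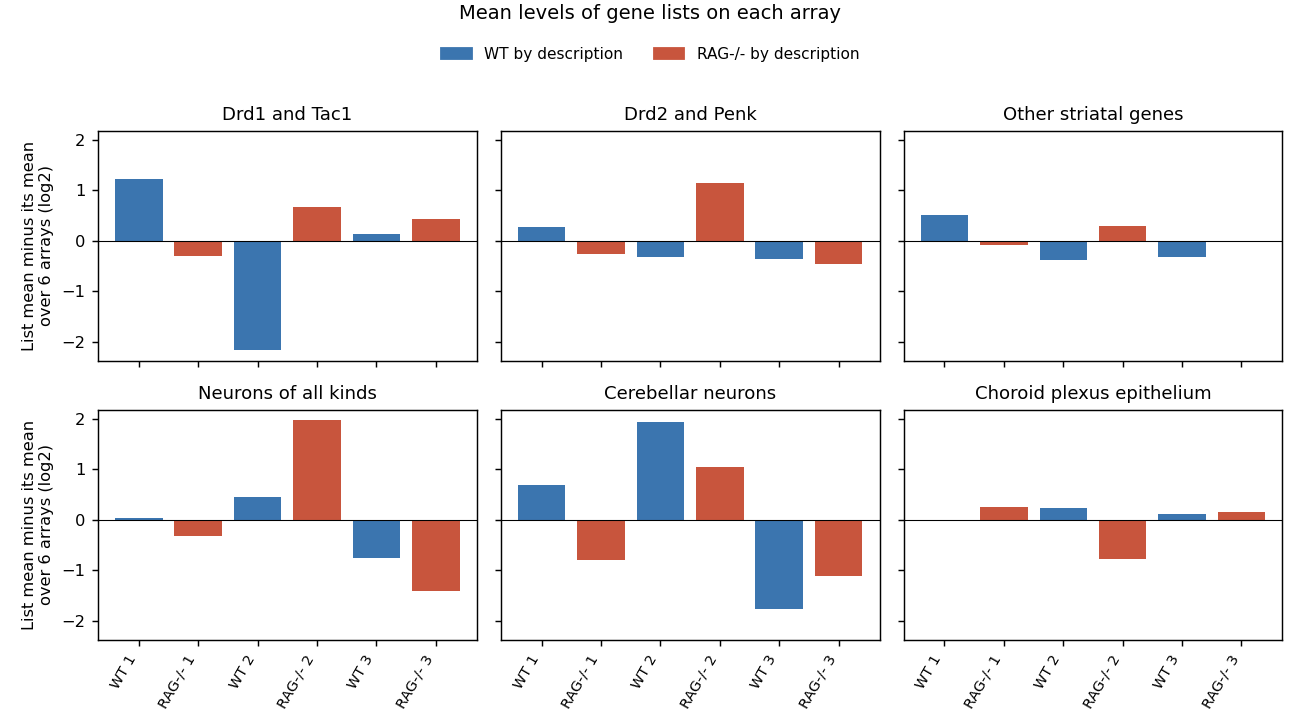
Mean log2 level of each gene list on each array minus the mean of that list over the 6 arrays, ordered by pair and coloured by the genotype in the description. Drd1 and Tac1 were lowest in WT replicate 2, where cerebellar neuron markers were highest, and Drd2 and Penk were highest in RAG-/- replicate 2, where neurons of all kinds were highest and choroid plexus epithelium markers lowest.

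Genes outside the list whose pattern over the 6 arrays lay nearest to the mean of the 8 genes were ranked by the root mean square distance between centred log2 levels. The nearest were Plcg2 (0.08), a phospholipase of immune receptor signalling, and Trpm6 (0.11), a magnesium channel, followed by Nxpe4, Rapgef5, Il1f10, Tmem158, Phlda1 and Numbl with distances up to 0.19. The median distance over all genes was 0.61. Tmem158 belongs to the other striatal genes above. With 6 arrays and 13537 genes such likeness is a description only.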

How the data were processed

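The 6 samples were grouped by their descriptions and, beside this, by the genotype in their titles. The authors deposited linear intensities for 45101 probe sets on each array. The sources used here name neither the software nor the normalization behind them. Their trimmed mean (2% removed at each end) was 500 on every array, so arrays had been scaled to a common brightness, and medians were between 77.8 and 97.1. The number of arrays limits the precision.

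With 64 control probe sets removed, intensities were converted to log2(intensity + 16), which understates changes of dim genes, and quantile normalized, because 75th percentiles differed by 0.232 on the log2 scale between arrays. Of 45037 probe sets, 34945 had 1 symbol in the platform annotation, and 34741 of these matched the gene table of GRCm38.p6. The brightest probe set stood for each gene. Two-sided tests used limma 3.58.1 under R 4.3.3 (lmFit and trended eBayes), and p-values were adjusted by Benjamini-Hochberg over 27022 probe sets, with a threshold of 0.05. The fits were tested on simulated data with large changes and small independent noise. That checked the code, and not the power or error rate in these samples. Nothing in the labels says that samples came from separate animals, so the p-values reflect only how these samples spread, and part of that may be technical.

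Members, gene lists and tests were chosen with earlier results of these data known. The text names every member, the 6 other striatal genes of widest range among those kept, those past a threshold, the 8 genes nearest to the members, Ttr, Snap25, Rag1 and Rag2. Other genes were named after values were seen. These are striatal genes below the filter, markers of dopamine and hindbrain neurons, ependyma and subventricular progenitors, and genes nearest to the members without Ppp1r1b. The pairs come from a code in the titles. Deviations from group means correlated at 0.29, 0.39 and 0.58 within pairs by description and at 0.36, 0.43 and 0.56 by title, each above 0.1, so the pair was also fitted as a block. The alternatives were other scalings, pseudocounts of 1 and 64, no filter, the mean of a gene's probe sets, the pair block, array weights, and leaving out each array or pair. Leaving Ppp1r1b out of the members, and recomputing counts of members higher, were chosen after seeing the data.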

Additional observations from a re-analysis of the deposited data

How the results depend on the processing

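No member probe set passed under any alternative by description or by title, with limma, and over all probe sets the counts stayed at 0 except as follows. By description 4 passed without RAG-/- replicate 2 (0 to 4 over single arrays left out) and 2 without pair 2; by title 2 passed with array weights. With the pair as a block the count was 0 by description and 1 by title, the adjusted p of the members was 1 by description and between 0.926 and 0.95 by title, and the block changed no call of a member at an adjusted p, while at an unadjusted p under 0.05 it took the members by title from 2 to 6 of 8. The count among pairs was 919 as deposited, 1024 with a common median, 79 with no filter, 2479 with array weights, 140 with genotype by title and 0 with genotype by description in the fit, and 0 to 7324 without single arrays; the cause was not tested.

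By description the direction of single genes depended on 1 or a few arrays, and the cause was not tested. Differences without single arrays ranged from -0.30 to 1.15 for Drd1, -0.52 to 1.41 for Tac1, -0.63 to 0.69 for Gng7, -0.37 to 0.71 for Pde10a, -0.58 to 0.71 for Penk, -0.40 to 0.16 for Rgs9 and -0.74 to 0.069 for Ppp1r1b. Without pair 2 they were -0.25 for Drd1, -0.98 for Tac1, -0.48 for Gng7, -0.30 for Pde10a, -0.67 for Penk and 0.25 for Ppp1r1b, and Drd2 was at -0.072 by title. Without pair 1 Rgs9 was at 0.20, and without pair 3 Gng7 was at -0.21 and Pde10a at -0.41. With array weights Gng7 was at -0.22, Pde10a at -0.34 and Penk at -0.19. With all probe sets averaged Drd1 was at -0.32 and Pde10a at -0.27. Gng7 was at -0.024 as deposited and at -0.03 with a pseudocount of 64. The count of members higher by description was 3 with array weights, 2 without pair 2 and 2 to 7 without single arrays, and that of other striatal genes was 10 without pair 2. By title 7 of 8 members were higher under every alternative except without pair 2, where 6 were. Without Ppp1r1b the mean difference was 0.23 by description and 0.99 by title. Dim members (Drd1, Drd2) are limited by signal near background.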

Other observations

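With Ppp1r1b left out of the members, a choice made after its values were seen, the genes nearest to the mean of the other 7 were Plcg2 and Trpm6 again (0.14 and 0.15 in root mean square, log2 units), then Phactr1, a regulator of actin and phosphatase activity (0.16), Il1f10, Ngef, 8430429K09Rik, Fhl1 and Ccdc167, up to 0.22, where the median over all genes was 0.71. Phactr1 was at 9.32 and 8.14 in WT and RAG-/- replicates 1, 7.66 and 9.25 in replicates 2, and 8.23 and 8.96 in replicates 3. Ngef, an exchange factor of neurons, was highest in RAG-/- replicate 2 (9.77) and lowest in WT replicate 2 (7.79). Within the list Tac1 and Ppp1r1b lay farthest apart of the 28 pairs of members, at 1.78.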
